A study of Gallus gallus with 6 samples.

Results

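The mitochondrial carrier family is the group of SLC25 genes, whose proteins move metabolites, nucleotides, cofactors and ions across mitochondrial membranes. Its members were taken as every row of the deposited gene table whose symbol begins with SLC25A and a number, leaving out SLC25A1. This gave 33 carriers among 15491 listed genes, and all 33 were among the 14743 genes that passed the filter on low counts. Messenger RNA had been sequenced from the abdominal fat of male broilers of the Ross strain, a fast-growing meat-type chicken. The heat stress group lived at 32 °C and the thermoneutral group at 22 °C (each ± 0.5 °C, 50% humidity) from day 21 to day 35 of age. Both groups had been in individual cages from day 14, ate the same diet and had light for 24 h a day. Each group had 3 libraries. Whether a library is 1 chicken is not stated in the labels, so a p-value here speaks only of variation among the sequenced libraries, which may be technical.

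Most carriers sit in the inner mitochondrial membrane, where they exchange a substrate of the matrix for one of the cytosol. Through them ADP and phosphate reach the ATP synthase and ATP leaves, acylcarnitines reach beta-oxidation, and reducing equivalents, amino acids and cofactors pass between compartments. In fat cells they also connect mitochondrial carbon with cytosolic fatty acid synthesis. The roles given here are known mainly from mammals and yeast. Carriers are inserted into the membrane by the TIM22 complex, with small TIM chaperones that guide them through the intermembrane space.

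Total counts per library ran from 38336086 to 45163458 in heat stress and from 30673333 to 35836632 in thermoneutral fat, and every heat stress library was the deeper. Single genes are compared between groups in CPM, a gene's count relative to 1e+06 counts of the library after TMM scaling, edgeR's correction for differences in RNA composition. A level of 1 CPM was 38.15 to 46.01 counts in heat stress libraries and 29.98 to 35.18 counts in thermoneutral libraries. Levels between genes, and sums over genes, are given in the authors' TPM, which is also scaled for transcript length. On log2(TPM + 1) the median log2 fold change over all genes was 0.076. Means and sums in TPM hold this shift toward heat stress. The 12 adipocyte markers measured summed to 39140, 41970 and 46740 TPM in heat stress and 43430, 39690 and 42370 TPM in thermoneutral fat, high in every library as the tissue label says. FABP4 made up most of each sum, and single markers differed between the groups. Of the 12, 10 had positive log2 fold changes (median 0.56), where 49.4% of all genes were positive. FASN, higher in heat stress, passed a false discovery rate of 0.05 in edgeR (0.0476), a mark that 0.115% of all genes reached upward. DESeq2 called FASN, LPL, DGAT2 and CEBPA higher (5.09% of all genes with an adjusted p) and PNPLA2 lower (4.09%) in heat stress. Marker sums of some other cell types separated the groups, and those of others overlapped. Summed T and NK cell markers (15 measured) were 182 to 198 TPM in heat stress and 261 to 285 TPM in thermoneutral fat. Summed fibroblast and preadipocyte markers (14 measured) were 16140 to 20090 TPM and 22490 to 26920 TPM. Summed endothelial markers (16 measured) were 2079 to 2442 TPM in heat stress and 1505 to 1907 TPM in thermoneutral fat. Heterophil and thrombocyte markers (10 measured) summed to 216 to 258 TPM and 261 to 635 TPM. Sums of B and plasma cell, macrophage and dendritic cell, and smooth muscle and pericyte markers overlapped. Of these, 8 of 11, 5 of 13 and 5 of 11 genes were lower at an unadjusted p under 0.05 in edgeR (9.20% of all genes). The part of these cell types in the carrier values was not tested. In bulk tissue fewer cells of a type cannot be told apart from less RNA per cell.

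The comparison asks whether chronic heat exposure altered the transcripts of mitochondrial transport in fat. As a family the carriers stood close to the rest of the transcriptome. In edgeR's quasi-likelihood test 0 of the 33 passed a false discovery rate (FDR) of 0.05. Of all tested genes 0.176% did, 0.115% upward and 0.0610% downward under heat. An unadjusted p under 0.05 was reached by 5 carriers, which is 15.2% of the family against 18.8% of all genes. Of these, 2 were higher in heat stress (9.56% of all genes) and 3 were lower (9.20% of all genes). DESeq2 called 2 carriers at an adjusted p under 0.05, SLC25A10 higher (5.09% of all genes with an adjusted p) and SLC25A6 lower (4.09%). The authors' deposited table holds the same numbers of calls as DESeq2 here and nearly the same adjusted p-values for both genes, so it is no separate evidence. It lists SLC25A10 with a signed fold change of 1.472 and an adjusted p of 0.01103, and SLC25A6 with -1.444 and 8.661e-06.

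Log2 fold changes of heat stress over thermoneutral were positive for 16 carriers, which is 48.5% against 49.4% of all genes, and negative for 17. On log2(TPM + 1) they were positive for 22 carriers, beside 63.8% of all genes. In edgeR with TMM the median log2 fold change of the carriers was -0.0020, beside -0.0045 over all tested genes. The median absolute log2 fold change was 0.16 in the family and 0.20 over all genes. Every member differed less than 2-fold, and 22 of the 33 differed less than 1.2-fold. The standard error was under 0.2 for 27 members and ran from 0.08 to 0.46. Every heat stress library was above every thermoneutral library for 3 carriers, or 9.09% against 12.6% of all genes. Every one was below for 5 carriers, or 15.2% against 12.4% of all genes, and for the other 25 the groups overlapped. Each share was thus near its background.

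**Figure D1:**
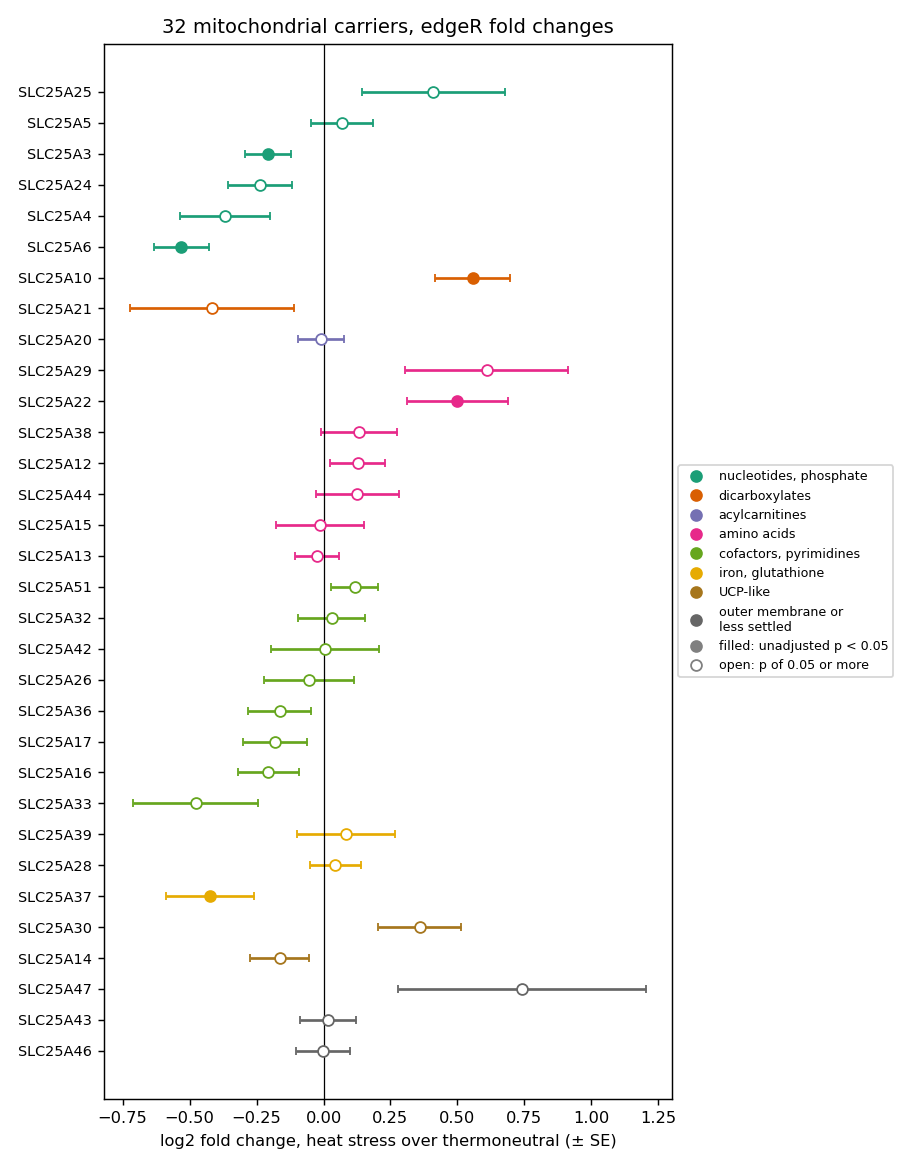
Log2 fold change of heat stress over thermoneutral with its standard error (x axis) for 32 of the 33 carriers (rows, coloured by substrate class); filled points have an unadjusted p under 0.05 in edgeR. Values run from -0.53 for SLC25A6 to 0.74 for SLC25A47, with 22 of the 33 members less than 1.2-fold apart between the groups.

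By level, a single gene made up much of the family. SLC25A6, an ADP/ATP carrier, averaged 848.5 ± 83.0 TPM in heat stress and 1145 ± 54.7 TPM in thermoneutral fat (SD, n = 3 each, as throughout). It supplied 42.1% ± 1.81 of the family's summed TPM in heat stress and 51.5% ± 1.76 in thermoneutral fat. Next were SLC25A3, the phosphate carrier, with 182 ± 13.6 TPM in heat stress and 197 ± 6.31 TPM in thermoneutral fat, and SLC25A5, another ADP/ATP carrier, with 173 ± 8.32 TPM and 154 ± 20.3 TPM. These neighbours in the order did not differ from each other beyond their spread in heat stress, and SLC25A3 was the higher in every thermoneutral library. After them came SLC25A20 with 96.0 ± 9.75 TPM in heat stress and 90.0 ± 1.92 TPM in thermoneutral fat, SLC25A28 with 78.3 ± 2.33 TPM and 70.9 ± 7.91 TPM, and SLC25A29 with 61.2 ± 26.8 TPM and 37.5 ± 7.16 TPM. At the bottom of the order SLC25A21 and SLC25A47 lay near 1 TPM. Counts behind a member's value ran from 40, for SLC25A47 in thermoneutral 1, to 30215, for SLC25A6 in thermoneutral 3.

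The family's summed TPM was 2077, 2086 and 1881 in the 3 heat stress libraries and 2178, 2205 and 2281 in the 3 thermoneutral libraries. Without SLC25A6 the order turned, with 1197, 1174 and 1127 TPM in heat stress and 1096, 1033 and 1100 TPM in thermoneutral fat. The groups did not overlap in either sum. TPM itself lay higher in heat stress by a median of 0.076 over all genes on the log2(TPM + 1) scale, so the second sum moved in the direction of the unit as a whole.

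Carriers that serve ATP production held the member of smallest p. ADP/ATP carriers bring ADP into the matrix and let newly made ATP out. SLC25A6 had 607, 612 and 526 CPM in heat stress libraries 1, 2 and 3, against 809, 854 and 859 CPM in thermoneutral libraries 1, 2 and 3. All 3 heat stress values lay well under all 3 thermoneutral values. The log2 fold change was -0.53 ± 0.10 (SE), with an unadjusted p of 0.00127 and an FDR of 0.0676 in edgeR, which misses the threshold. DESeq2 gave it an adjusted p of 8.66e-06. Over the edgeR and limma alternatives its FDR ran from 0.0596 to 0.189 and its log2 fold change over all alternatives from -0.57 to -0.44, so its direction held in all of them and it passed in DESeq2 alone.

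SLC25A5, the ADP/ATP carrier that mammals induce in growing cells, had 107, 95.7 and 100.5 CPM in heat stress and 108, 81.4 and 99.6 CPM in thermoneutral fat. Its groups overlapped (log2 fold change 0.07 ± 0.12, FDR = 0.80 in edgeR), and without thermoneutral 2 the sign turned (-0.05). Markers of proliferating cells, 17 of them in the table, summed to 116, 96.9 and 75.2 TPM in heat stress and 118, 195.5 and 115 TPM in thermoneutral fat. These sums overlapped, but 17 of the 17 genes had negative log2 fold changes (median -1.09), where 49.4% of all genes were positive. In edgeR 12 were lower at an unadjusted p under 0.05 (9.20% of all genes). The part of these markers in the SLC25A5 level was not tested. SLC25A4, the ADP/ATP carrier of heart and skeletal muscle in mammals, had 18.5, 13.6 and 12.3 CPM in heat stress and 18.0, 19.9 and 19.4 CPM in thermoneutral fat. Heat stress 1 lay among the thermoneutral values, and the log2 fold change of -0.37 ± 0.17 had an FDR of 0.302. Without heat stress 1 it was -0.56 (FDR = 0.0981 in edgeR). Skeletal muscle markers, of which 4 of the list were in the table, summed to 21.6, 38.8 and 30.0 TPM in heat stress and 47.1, 84.8 and 54.1 TPM in thermoneutral fat. Their part in the SLC25A4 value was not tested.

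Since these 3 carriers do the same exchange, their proportions were set side by side within each library, where library scaling drops out. SLC25A6 made up 81.1%, 83.2% and 80.4% of their summed TPM in heat stress, against 85.0%, 88.4% and 86.5% in thermoneutral fat. SLC25A5 made up 16.8%, 15.2% and 18.0% in heat stress, against 13.3%, 9.87% and 11.8%. The groups did not overlap for either gene. The mean difference was -5.11 percentage points for SLC25A6 and 5.02 for SLC25A5 (two-sided exact permutation test, p = 0.1 for each and 0.15 adjusted over the 3 carriers), and 0.1 is the smallest p that 3 against 3 libraries allow. SLC25A4 made up 1.79% ± 0.31 in heat stress and 1.70% ± 0.071 in thermoneutral fat (exact permutation p = 1). The 3 shares make up a whole, and that of SLC25A4 was small. The SLC25A5 difference therefore mirrors the SLC25A6 difference and is no separate result. Summed over the 3 genes, the level was 1085, 1096 and 939 TPM in heat stress and 1272, 1327 and 1364 TPM in thermoneutral fat, again without overlap. The 3 genes are close paralogues, and reads that fit more than 1 of them could have been split among them by the counting, so their proportions are uncertain to that degree.

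**Figure D2:**
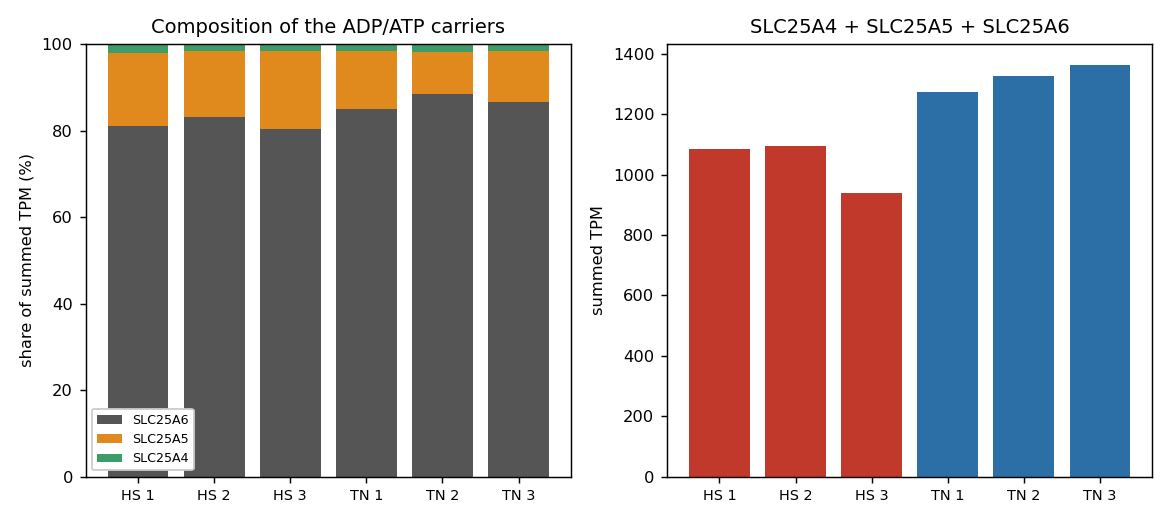
Left, share of SLC25A6, SLC25A5 and SLC25A4 in their summed TPM (y axis, percent) in each heat stress (HS) and thermoneutral (TN) library; right, the summed TPM. SLC25A5 takes 15.2% to 18.0% in heat stress and 9.87% to 13.3% in thermoneutral libraries, and every heat stress sum lies under every thermoneutral sum.

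SLC25A3, which imports the phosphate needed for ATP synthesis, had 347, 349 and 323 CPM in heat stress and 408, 379 and 388 CPM in thermoneutral fat. The groups did not overlap in CPM, but the difference was small (log2 fold change -0.21 ± 0.09, unadjusted p = 0.047, FDR = 0.26 in edgeR). In TPM the groups overlapped, and the log2 fold change on log2(TPM + 1) was -0.11 (FDR = 0.45 in limma). SLC25A24 and SLC25A25 exchange ATP-Mg for phosphate under the control of calcium and so set the size of the matrix nucleotide pool. SLC25A24 had 39.0, 49.5 and 42.7 CPM in heat stress and 48.3, 57.3 and 49.0 CPM in thermoneutral fat (log2 fold change -0.24 ± 0.12, FDR = 0.342). SLC25A25 had 32.96, 49.9 and 70.9 CPM in heat stress and 42.0, 41.7 and 32.1 CPM in thermoneutral fat. Both genes overlapped between the groups, and SLC25A25 was the more variable, with the highest and the second lowest value of all 6 libraries within heat stress (log2 fold change 0.41 ± 0.27, FDR = 0.46). Its log2 fold change was 0.10 without heat stress 3 and 0.65 without heat stress 1. The log2 TPM ratio of SLC25A25 over SLC25A24 was -0.68, -0.51 and 0.24 in heat stress and -0.78, -1.01 and -1.04 in thermoneutral fat. These ratios did not overlap, with a mean difference of 0.63 (exact permutation p = 0.1, 0.15 adjusted over the 3 ratios compared) that was 0.35 without heat stress 3.

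Of the 6 carriers of nucleotides and phosphate, 4 had negative and 2 positive log2 fold changes, with a median of -0.22, where 49.4% of all genes were positive. Among these, 0 passed the FDR and 2 (SLC25A6 and SLC25A3, both lower) had an unadjusted p under 0.05, a mark that 9.20% of all genes reached downward. Only 1 of the 33 carriers was lower at such a p with library totals in edgeR, and 1 on log2(TPM + 1) in limma. In these settings 18.8% and 20.6% of all genes had such a p in either direction.

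SLC25A10, the dicarboxylate carrier, exchanges malate or succinate for phosphate and is abundant in the white fat of mice. It had 26.9, 24.3 and 27.1 CPM in heat stress, against 18.4, 14.6 and 20.1 CPM in thermoneutral fat. All 3 heat stress libraries lay above the thermoneutral ones, with little spread among them. Its log2 fold change of 0.56 ± 0.14 had an unadjusted p of 0.00527 and an FDR of 0.106 in edgeR, and an adjusted p of 0.011 in DESeq2. Leaving out any 1 library left it between 0.43 and 0.66 (FDR 0.158 to 0.264), and its FDR over all edgeR and limma alternatives was 0.0663 to 0.264. In the RefSeq annotation of the later build GRCg7b its neighbours are MRPL12 and GCGR. SLC25A21, the carrier of oxodicarboxylates such as 2-oxoadipate, was near the lower end of the table with 1.46 ± 0.11 CPM in heat stress and 1.95 ± 0.579 CPM in thermoneutral fat, and its groups overlapped (FDR = 0.514). SLC25A11, the oxoglutarate carrier, was not analysed here.

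SLC25A20 carries acylcarnitines into the matrix in exchange for carnitine, the step that links CPT1 and CPT2 in beta-oxidation. It had 88.4, 103.6 and 92.4 CPM in heat stress and 99.0, 94.7 and 92.4 CPM in thermoneutral fat. The groups coincided, with a log2 fold change of -0.0088 ± 0.085 (FDR = 0.967) that changed sign under several alternatives.

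Of the 7 carriers of amino acids, 5 had positive log2 fold changes (median 0.13), 1 had an unadjusted p under 0.05 and 0 passed the FDR. Of all genes 49.4% were positive and 18.8% had such a p. SLC25A22, which imports glutamate with a proton, had 46.7, 33.9 and 27.7 CPM in heat stress and 26.3, 26.6 and 23.8 CPM in thermoneutral fat. Its groups did not overlap, but heat stress 3 lay close to the thermoneutral libraries (log2 fold change 0.50 ± 0.19, unadjusted p = 0.033, FDR = 0.219 in edgeR). Without heat stress 1 the value was 0.27. SLC25A29, a carrier of basic amino acids such as arginine and lysine, had 113.9, 53.3 and 59.0 CPM in heat stress and 53.8, 38.4 and 56.1 CPM in thermoneutral fat. Heat stress 1 stood apart, and the log2 fold change of 0.61 ± 0.30 (FDR = 0.336) was 0.18 without it.

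SLC25A12 (aralar) and SLC25A13 (citrin) exchange aspartate for glutamate in the malate-aspartate shuttle, which brings the electrons of cytosolic NADH to the matrix. SLC25A12 had 62.0, 57.5 and 50.4 CPM in heat stress and 56.0, 49.1 and 50.5 CPM in thermoneutral fat (log2 fold change 0.13 ± 0.10, FDR = 0.563). SLC25A13 had 42.0, 38.0 and 38.9 CPM in heat stress and 39.2, 41.5 and 40.2 CPM in thermoneutral fat (log2 fold change -0.023 ± 0.082, FDR = 0.907). Neither separated the groups. Their log2 TPM ratio averaged 0.74 ± 0.10 in heat stress and 0.63 ± 0.12 in thermoneutral fat, a difference of 0.11 within the spread (exact permutation p = 0.2, also 0.2 adjusted). SLC25A38, which brings glycine in for haem synthesis, had 18.5, 21.8 and 24.8 CPM in heat stress and 20.7, 21.0 and 17.7 CPM in thermoneutral fat (FDR = 0.667). SLC25A15, the ornithine carrier, and SLC25A44, a carrier of branched-chain amino acids, stood at log2 fold changes of -0.013 ± 0.165 and 0.13 ± 0.15.

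The 9 carriers of cofactors and pyrimidine nucleotides had 3 positive and 6 negative log2 fold changes (median -0.054), where 49.4% of all genes were positive. Among them 0 had an unadjusted p under 0.05 (18.8% of all genes) and 0 passed the FDR. SLC25A33, which moves pyrimidine nucleotides for mitochondrial DNA and RNA synthesis, had 4.37, 7.15 and 7.65 CPM in heat stress and 9.07, 8.63 and 8.98 CPM in thermoneutral fat. It separated the groups, with heat stress 1 far below the rest (log2 fold change -0.48 ± 0.23, FDR = 0.328, and -0.26 without heat stress 1). SLC25A36, the other pyrimidine carrier, did not separate them, with 107.8 ± 12.4 CPM in heat stress and 120.8 ± 12.8 CPM in thermoneutral fat. SLC25A16, long linked to coenzyme A, had 34.6, 40.1 and 41.8 CPM in heat stress and 41.6, 50.1 and 42.6 CPM in thermoneutral fat (log2 fold change -0.21 ± 0.11, FDR = 0.385, and -0.12 without thermoneutral 2 or -0.13 without heat stress 1). SLC25A42, which imports coenzyme A, averaged 60.8 ± 15.7 CPM in heat stress and 60.5 ± 7.92 CPM in thermoneutral fat.

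SLC25A17, a carrier of the peroxisomal membrane, separated the groups narrowly, with 10.4 to 11.0 CPM in heat stress and 11.4 to 12.6 CPM in thermoneutral fat (log2 fold change -0.18 ± 0.12, FDR = 0.468). In TPM its groups overlapped. The carriers of NAD+ (SLC25A51), folate and FAD (SLC25A32) and S-adenosylmethionine (SLC25A26) overlapped between the groups, with log2 fold changes of 0.12 ± 0.089, 0.030 ± 0.125 and -0.054 ± 0.169.

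Iron enters the matrix through the mitoferrins. SLC25A37, mitoferrin-1, is the form of developing red cells in mammals. It had 8.60, 8.37 and 8.57 CPM in heat stress and 10.7, 13.7 and 9.84 CPM in thermoneutral fat. Heat stress values were tightly grouped below the thermoneutral ones (log2 fold change -0.42 ± 0.16, unadjusted p = 0.035, FDR = 0.225 in edgeR). Without thermoneutral 2, the highest library, the log2 fold change was -0.28. Erythrocyte markers, 13 of them in the table, summed to 875, 1544 and 1337 TPM in heat stress and 1617, 3213 and 1438 TPM in thermoneutral fat, highest in that same library. Of these markers 12 had negative log2 fold changes (median -0.88), where 49.4% of all genes were positive. In edgeR 4 were lower at an unadjusted p under 0.05 (9.20% of all genes). Their part in the SLC25A37 value was not tested.

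SLC25A28, mitoferrin-2, the form of other cells, had 66.7, 63.6 and 63.6 CPM in heat stress and 60.4, 57.5 and 70.1 CPM in thermoneutral fat, with no separation (log2 fold change 0.044 ± 0.094, FDR = 0.842). The log2 TPM ratio of SLC25A37 over SLC25A28 was -4.04, -4.01 and -3.97 in heat stress and -3.58, -3.16 and -3.92 in thermoneutral fat. These did not overlap (mean difference -0.46, exact permutation p = 0.1, 0.15 adjusted over the 3 ratios), and the difference was -0.26 without thermoneutral 2. SLC25A39, a glutathione importer, averaged 26.4 ± 3.98 CPM in heat stress and 24.9 ± 5.09 CPM in thermoneutral fat.

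SLC25A30 and SLC25A14 resemble the uncoupling proteins in sequence, and what they carry is less settled. SLC25A30 had 46.3, 37.1 and 36.3 CPM in heat stress and 33.1, 25.4 and 34.8 CPM in thermoneutral fat. It was higher in all 3 heat stress libraries, though heat stress 3 and thermoneutral 3 lay close together (log2 fold change 0.36 ± 0.15, unadjusted p = 0.053, FDR = 0.276 in edgeR). Without thermoneutral 2 the log2 fold change was 0.22, and without heat stress 1 it was 0.24. SLC25A14 averaged 16.6 ± 0.888 CPM in heat stress and 18.6 ± 1.32 CPM in thermoneutral fat, with overlap (FDR = 0.472). UCP3, the uncoupling protein of birds, belongs to the same family by sequence but not by symbol. It had 0.58, 0.35 and 0.21 CPM in heat stress and 0.50, 0.25 and 0.34 CPM in thermoneutral fat, so it was barely expressed in either group (FDR = 0.962).

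SLC25A47, a carrier found mainly in the liver of mammals, was also low, with 5.57, 2.37 and 3.12 CPM in heat stress and 1.33, 1.85 and 3.41 CPM in thermoneutral fat. It had the family's largest log2 fold change and its largest error (0.74 ± 0.46, FDR = 0.442). Its log2 fold change was 0.32 without heat stress 1, 0.48 without thermoneutral 1 and 1.21 without thermoneutral 3. In the fit without heat stress 1 it was not the largest, since the log2 fold change of SLC25A25 was 0.65 and that of SLC25A10 0.54. SLC25A47 and SLC25A29 are neighbours in GRCg7b, and heat stress 1 was the highest library for both, as it was for 9 of the 33 carriers in all. SLC25A46, of the outer membrane, where it takes part in mitochondrial fusion and fission, and SLC25A43, whose substrate is less settled, had log2 fold changes of -0.0020 ± 0.102 and 0.017 ± 0.104. SLC25A43 and SLC25A5 are neighbours in the same annotation, and neither separated the groups. MTCH1 and MTCH2, family members of the outer membrane outside the symbol rule, stood at 0.013 ± 0.192 and -0.029 ± 0.119.

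**Figure D3:**
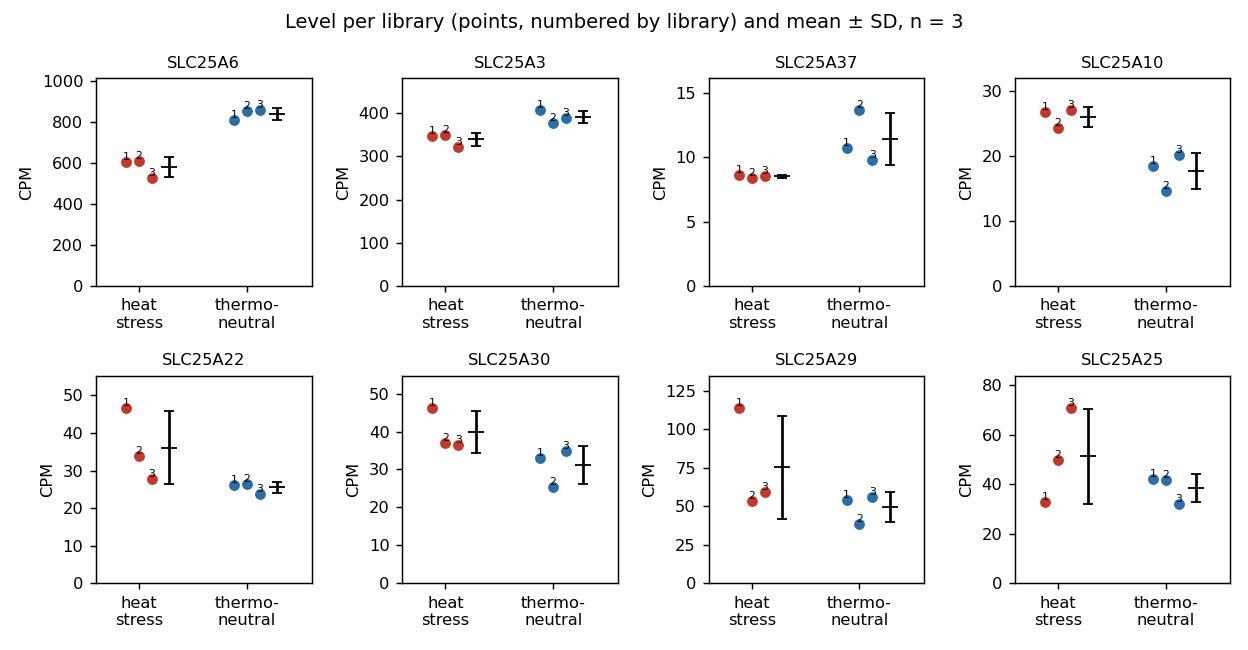
CPM (y axis, from 0) of 8 carriers in each library, numbered within its group, with the mean ± SD of the 3 libraries beside the points. SLC25A6, SLC25A3 and SLC25A37 lie lower and SLC25A10, SLC25A22 and SLC25A30 higher in every heat stress library, while SLC25A29 and SLC25A25 vary most among the heat stress libraries relative to their means.

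Libraries differed in how often they held the extreme value of a carrier. The same counts were not made over all genes, so they show nothing particular to carriers. Heat stress 1 was the highest of all 6 libraries for 9 carriers and the lowest for 8. Thermoneutral 2 was the lowest for 11 and the highest for 6, whereas heat stress 2 was an extreme for few (highest for 1, lowest for 4). The median carrier, on log2 CPM relative to the thermoneutral mean, stood at -0.044, -0.0059 and -0.0016 in heat stress 1, 2 and 3 and at 0.030, -0.0091 and 0.015 in thermoneutral 1, 2 and 3. Every one of these medians lay within 0.05 of 0. Over all genes the medians were 0.0093, 0.00084 and -0.0024 in heat stress 1, 2 and 3. They were -0.0012, 0.00077 and 3.2e-05 in thermoneutral 1, 2 and 3. Since the thermoneutral mean is the reference and the libraries are scaled to each other, medians near 0 are partly built in.

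**Figure D4:**
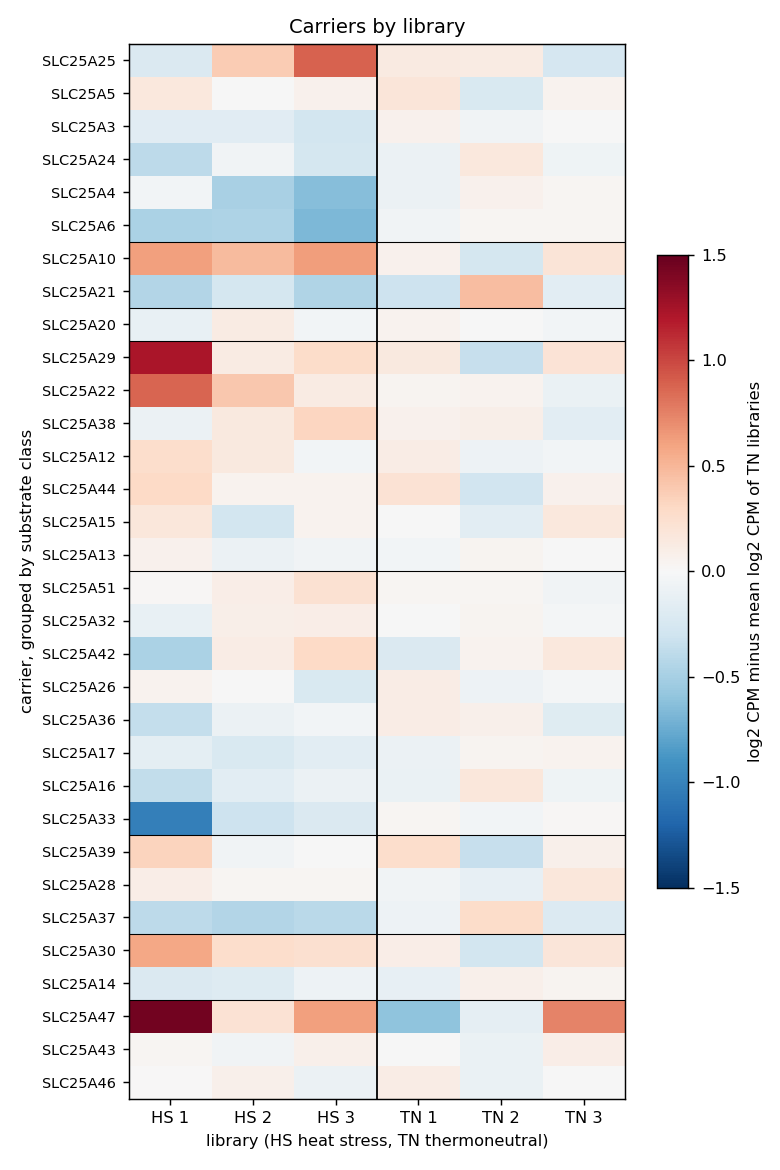
Log2 CPM of 32 of the 33 carriers (rows, grouped by substrate class) in each library (columns), minus the gene's mean over thermoneutral (TN) libraries. SLC25A6 and SLC25A37 are below and SLC25A10 above the thermoneutral mean in all 3 heat stress (HS) libraries, and heat stress 1 holds the extreme values of SLC25A29, SLC25A33 and SLC25A47.

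Genes around the carriers were described from 5 lists, each read against the 18.8% of all genes at an unadjusted p under 0.05. The genes shown are the 3 of smallest p in each list, a choice that favours groups without overlap. Of all genes, 12.6% were higher and 12.4% lower in heat stress without overlap. In each list 0 genes passed the FDR in edgeR, while DESeq2 called TSPO and GPD2 higher (5.09% of all genes with an adjusted p) and SFXN1, COX1, COX3 and ND5 lower (4.09%). The import route of carriers had 7 genes measured (median -0.28). At an unadjusted p under 0.05, 2 were lower (9.20% of all genes) and 0 were higher (9.56%). TIMM9, a small chaperone of the intermembrane space, had 8.81, 9.56 and 7.81 CPM in heat stress and 13.3, 11.3 and 11.5 CPM in thermoneutral fat, without overlap (log2 fold change -0.46 ± 0.15, FDR = 0.168). Its partner TIMM10 averaged 3.99 ± 0.128 CPM in heat stress and 5.14 ± 0.756 CPM in thermoneutral fat, and TOMM20, an outer membrane receptor, 108 ± 10.3 CPM and 130.7 ± 8.64 CPM. Both were lower in all 3 heat stress libraries, with FDRs of 0.387 and 0.196. In TPM the groups of TIMM9, TIMM10 and TOMM20 overlapped.

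Of other transporters and channels of mitochondrial membranes 24 were measured (median 0.026). At an unadjusted p under 0.05, 1 was higher (9.56% of all genes) and 1 was lower (9.20%). TSPO, the translocator protein of the outer membrane, had 146, 159 and 165 CPM in heat stress and 124, 94.1 and 113 CPM in thermoneutral fat (log2 fold change 0.50 ± 0.12, FDR = 0.0902, and an adjusted p of 0.00566 in DESeq2). SFXN1, a serine importer, averaged 15.9 ± 2.27 CPM in heat stress and 27.2 ± 8.32 CPM in thermoneutral fat (log2 fold change -0.78 ± 0.23, FDR = 0.142). SFXN5 averaged 9.61 ± 1.11 CPM and 7.31 ± 1.10 CPM (FDR = 0.301).

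Among enzymes that use carried substrates or belong to shuttles of reducing equivalents 32 were measured (median 0.059). At an unadjusted p under 0.05, 6 were higher (9.56% of all genes) and 1 was lower (9.20%). GPD2, the mitochondrial arm of the glycerol phosphate shuttle, had 98.0, 72.7 and 83.4 CPM in heat stress and 59.9, 63.5 and 55.2 CPM in thermoneutral fat, without overlap (log2 fold change 0.51 ± 0.12, FDR = 0.0985). ACLY, which splits exported citrate for lipid synthesis, averaged 110 ± 2.25 CPM in heat stress and 93.1 ± 6.27 CPM in thermoneutral fat. GLUD1, the glutamate dehydrogenase of the matrix, averaged 67.2 ± 2.28 CPM and 82.9 ± 7.83 CPM. Their FDRs were 0.168 and 0.143.

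Of the mitochondrial biogenesis genes 14 were measured (median -0.017). At an unadjusted p under 0.05, 0 were higher (9.56% of all genes) and 1 was lower (9.20%). The lower one was TFB1M, a ribosomal RNA methyltransferase, at 11.5 ± 0.841 CPM in heat stress and 14.4 ± 1.26 CPM in thermoneutral fat. TFAM, which packages mitochondrial DNA, averaged 39.3 ± 0.664 CPM in heat stress and 34.1 ± 2.60 CPM in thermoneutral fat. GABPA, a transcription factor of respiratory genes, averaged 91.4 ± 5.80 CPM and 103.2 ± 2.82 CPM. All 3 separated the groups in CPM, with FDRs of 0.230, 0.280 and 0.283. In TPM the groups of TFB1M and GABPA overlapped, while those of TFAM did not.

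Mitochondrially encoded mRNAs had 12 of 13 negative log2 fold changes (median -0.23), where 49.4% of all genes were positive. Of the 12, 3 had an unadjusted p under 0.05, a mark that 9.20% of all genes reached downward. COX1, a core subunit of cytochrome c oxidase, had 16949, 17459 and 16801 CPM in heat stress and 25600, 25416 and 21939 CPM in thermoneutral fat. Its log2 fold change was -0.51 ± 0.17, with an FDR of 0.173 in edgeR and an adjusted p of 1.80e-05 in DESeq2. COX3 averaged 6938 ± 303 CPM and 9005 ± 838 CPM and, like COX1, lay lower in every heat stress library (FDR = 0.225). ND6 averaged 203 ± 18.7 CPM in heat stress and 279 ± 70.2 CPM in thermoneutral fat with overlap (FDR = 0.242). Most of these 13 genes are transcribed from a shared precursor, so they are not independent of each other.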

How the data were processed

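Per the labels' protocols, libraries came from TRIzol-extracted RNA by a kit that keeps strand and selects poly(A). The submitters' processing notes name HISAT2 2.1.0, Bowtie2 2.3.4.1, StringTie 2.1.3b and the build GRCg6a. What each did, and whether counting used strand, is not given in the sources used here. Whether reads of overlapping antisense genes were told apart is therefore unknown. The authors deposited, per the file headers, read counts (raw), TPM values and FPKM values per gene, with their own signed fold changes and raw and adjusted p-values; the lowest count is 1, so genes at 0 in any library are not listed. Columns of normalized values of unstated method (6 in the table used) were left unused. Titles gave each library its group. Within a group, counts of any 2 libraries gave a chi-square of 34.4 to 98.22 for each degree of freedom, far from a library deposited in duplicate.

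Counts were tested over all genes with edgeR 4.0.16 (R 4.3.3; TMM, filterByExpr, quasi-likelihood F test, Benjamini-Hochberg). Standard errors were taken as the absolute log2 fold change over the root of F. DESeq2 1.42.0 and limma 3.58.1 on log2(TPM + 1) or log2(FPKM + 1) were alternatives. The scripts were tested on simulated data, where the only condition set was on the size of edgeR's fold changes. That condition does not bear on how many genes edgeR or DESeq2 call. Proportions of paralogues were compared by two-sided exact permutation tests. Of the carriers, 19 were given library by library: the 12 of smallest p, the 6 of highest TPM and 14 chosen by name, of which SLC25A11 was not analysed here, and the others by range or mean; other lists by their 3 genes of smallest p. The members, lists and rules were chosen with earlier results of these data known. Same-numbered libraries' deviations correlated at 0.0642, 0.263 and 0.0245 across genes, and those of the other pairs at -0.205 to 0.14. With 3 libraries per group these values cannot decide whether libraries were paired. The titles do not state a pairing and the library names carry other numbers than the titles, so libraries were not treated as paired. No coordinates are given, since the reference table is of another build (GRCg7b), used for names and neighbours; 32 of the 33 gene IDs matched. The symbols SLC25A34, SLC25A40 and SLC25A48 are in the GRCg7b annotation but not in the gene table used. No sequences are printed. Of the 33 carriers, 1 enters the totals and counts but is not reported here by name or drawn.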

Additional observations from a re-analysis of the deposited data

How the results depend on the processing

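The number of carriers past the FDR was 0 in every edgeR and limma setting and in each fit without 1 library, and 2 in DESeq2. Over all genes the count was 26 in edgeR with TMM, 99 with library totals, 133 with at least 1 CPM in all libraries, 1364 in DESeq2, 202 on log2(TPM + 1), 222 on log2(TPM + 0.1), 143 on log2(TPM + 1) without a filter, and 3 to 35 without 1 library (6 without heat stress 2, 3 without heat stress 3, 10 without thermoneutral 2 and 3 without thermoneutral 3). With library number as a replicate block it was 95, with 0 carriers past the FDR. In that fit 6 of the 33 carriers and 17.8% of all genes had an unadjusted p under 0.05. The labels do not say that library numbers pair the groups, so the numbers were read as names only. Carriers at an unadjusted p under 0.05 numbered 2 to 5 of the 33 without 1 library, beside 13.3% to 18.9% of all genes. They were 3 without heat stress 3 (13.3% of all genes) and 2 without thermoneutral 1 (18%) or thermoneutral 2 (15.2%). By direction, 4 carriers were higher and 3 lower at such a p in DESeq2, beside 20% of all genes in either direction. With the replicate block 4 were higher and 2 lower (17.8%), and with library totals 3 were higher and 1 lower (18.8%). On log2(TPM + 1) 3 were higher and 1 lower (20.6%). The family median was 0.021 with library totals (0.018 over all genes) and 0.093 on log2(TPM + 0.1) (0.094 over all genes). On log2(TPM + 1) it was 0.086 with or without the filter (0.076 and 0.069 over all genes). Without 1 library it was -0.047 to 0.020 (-0.0094 to 0.0014 over all genes).

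Positive log2 fold changes numbered 11 (without thermoneutral 2, 49.5% of all genes) to 22 (the TPM settings, 62.9% to 63.9% of all genes) of the 33 carriers. Every member whose sign turned in any setting stood at most 0.126 from 0 in edgeR with TMM. Of the 19 carriers given library by library, 4 turned. SLC25A20 stood at 0.013 with library totals, 0.086 on log2(TPM + 1) with and without the filter, 0.087 on log2(TPM + 0.1), 0.0026 on log2(FPKM + 1), 0.040 without heat stress 1, 0.011 without heat stress 3 and 0.018 without thermoneutral 1 (-0.077 to 0.040 without 1 library). SLC25A13 stood at 0.072 on log2(TPM + 1) with and without the filter, 0.075 on log2(TPM + 0.1) and 0.0079 without heat stress 2 (-0.066 to 0.0079 without 1 library). Without thermoneutral 2, SLC25A5 stood at -0.047 (to 0.16 without another library) and SLC25A28 at -0.021 (to 0.13). The SLC25A4 share difference was -0.092 percentage points without heat stress 1 (-0.092 to 0.18 without 1 library). The cause was not tested. The other 15 of the 19 carriers given library by library kept their sign in every setting. Precision was lowest for SLC25A21, SLC25A29 and SLC25A47, with standard errors above 0.3; SLC25A21 and SLC25A47 are among the least abundant members.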
